A study of Rattus norvegicus with 5 samples.

Results

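The 10 genes described here are used to recognise astrocytes or carry out their main functions: Gpc5, Glul, Slc4a4, Aqp4, Gfap, Aldh1l1, Gja1, Gjb6, S100b and Sparcl1. They were chosen by symbol, as the rows of the authors' region lists that name a gene in a promoter, upstream, exon, intron, downstream or gene body column. All 10 were found among the 23154 protein-coding genes of the rat RefSeq annotation, and 8 of them had at least 1 region in 1 of 9 lists. The share of all genes with a region in any of the 9 lists was not counted, so the 8 cannot be read as many or few. Over input alone, 49.8% of all genes had no peak in any cell type. The lists come from rat genomic DNA that was enriched with an antibody against N6-methyladenine (6mA), an adenine carrying a methyl group at position 6, and then sequenced. NSCs were the SCR022 line, a commercial line of adult rat hippocampal neural stem cells, and the other samples are labelled only as Neurons and Astrocytes, with no genotype, treatment, age or origin given. Each of the 3 cell types gave 1 enriched library, and inputs, DNA saved before enrichment, are samples for NSCs and Neurons. The Astrocyte list over input is titled as made against an astrocyte input that is not among the samples, so its folds rest on a library not analysed here. With 1 library per cell type there was no replicate, so no difference between cell types could be tested and no p-value is given.

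Astrocytes are the glial cells that clear glutamate and potassium from around neurons, move water and bicarbonate at blood vessels, and are joined to each other by gap junctions. Gfap, Aldh1l1 and S100b are widely used to stain or sort them, and some of these genes, Gfap among them, are also active in adult neural stem cells. The presence of 6mA in mammalian DNA is debated, and an antibody peak is a region where more fragments were recovered than in the comparison library. Whether any region described here holds 6mA was not checked by another method. The files hold DNA and no RNA, so neither the expression of these genes nor the identity of the labelled cell types could be checked.

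The enriched libraries were of similar depth, with 15760246 reads for the NSC library, 16095308 for the Neuron library and 15767015 for the Astrocyte library, and between 13785430 and 13930646 mapped uniquely. The inputs held 27936774 reads for NSCs and 22329441 for Neurons. Between 89.71% and 90.41% of the enriched reads mapped, against 99.74% and 99.81% of the input reads. The authors' lists over input held 121816 regions in NSCs, 137579 in Neurons and 116091 in Astrocytes. Each region carries the authors' own fold (enriched library over input, or 1 enriched library over another) and score (10 times the −log10 p of the peak caller). A fold is set here against the other regions of its own list, and folds from separate lists are given side by side without a comparison.

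Astrocytes did not have more of these genes with a peak than the other cell types. In NSCs 6 of the 10 genes had a peak over input, beside 39.3% of all protein-coding genes. In Neurons the count was 6, beside 42.3%, and in Astrocytes it was 5, beside 39.5%. Gpc5, Slc4a4, Aldh1l1, Aqp4 and Gfap had a peak in all 3 cell types, which 31.1% of all genes did. Sparcl1 had one only in NSCs (2.87% of all genes) and Glul only in Neurons (4.54%). The peaks of Gfap and Glul rest on the authors' threshold: at the median score of the lists, Neurons keep neither gene and Astrocytes lose Gfap, and at the median fold NSCs lose Gfap. No member had a peak in Astrocytes alone, a pattern seen in 3.01% of all genes, and Gja1, Gjb6 and S100b had no peak in any cell type, as did 49.8% of all genes.

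**Figure D1:**
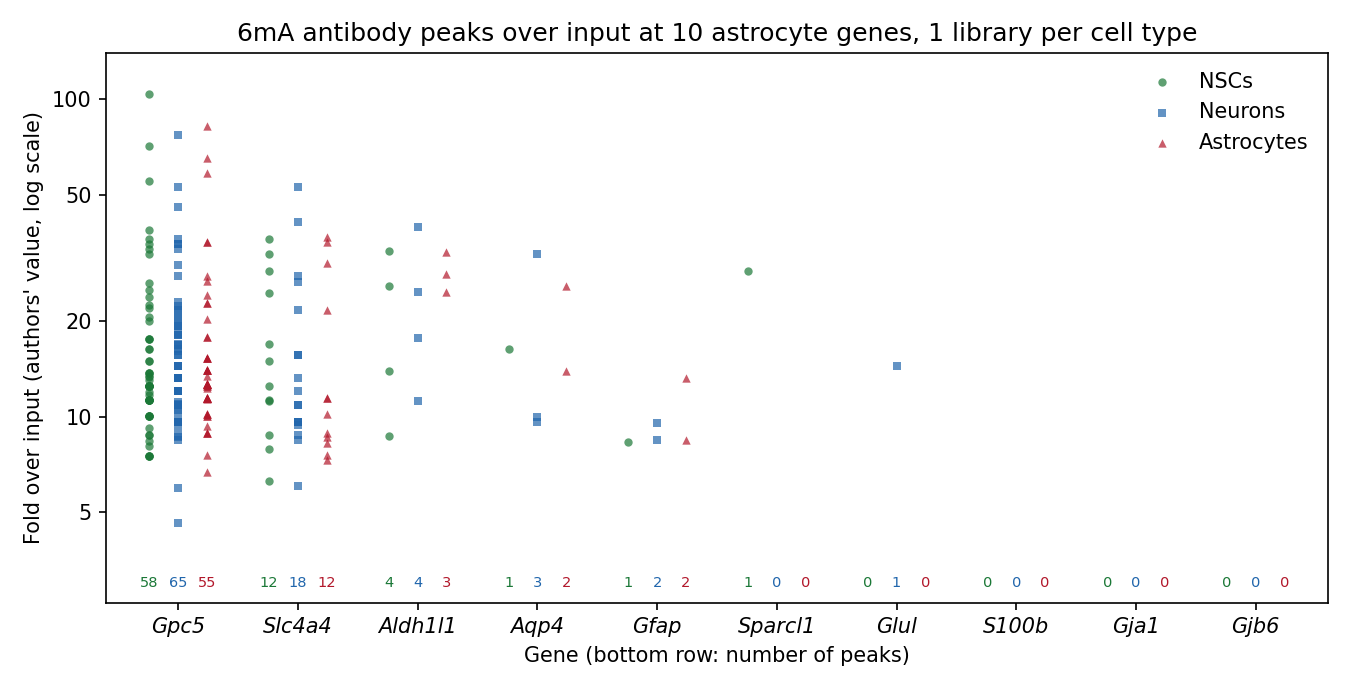
Fold over input (authors' value, log axis) of every peak at the 10 genes in NSCs, Neurons and Astrocytes, 1 library each, with the number of peaks printed under each gene. Gpc5 held 58, 65 and 55 peaks with folds up to 104.06, while S100b, Gja1 and Gjb6 held none.

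Long genes had a peak more often than short ones. The share of genes with a peak rose from 19.6% in NSCs, 24.1% in Neurons and 20.5% in Astrocytes in length decile 4 (decile 10 holds the longest genes) to 87.2%, 87.7% and 87.3% in decile 10. Gpc5 (1437 kb) and Slc4a4 (452 kb) lie in decile 10, and they held most of the 77 peaks found at the 10 genes in NSCs, the 93 in Neurons and the 74 in Astrocytes. Gfap (8.675 kb) and S100b (8.815 kb) lie in decile 4, and of these short genes Gfap had a peak in all 3 cell types and S100b in none. Gja1 (12.52 kb) and Gjb6 (10.5 kb) lie in decile 5, where 30.5%, 35.4% and 31.1% of genes had a peak in NSCs, Neurons and Astrocytes. Glul, at 66.06 kb in the reference, lies in decile 9, where the share with a peak was 76.9% in NSCs and 77.1% in Astrocytes, and it had none in either. That length runs from start site 1 (window chr13:68519250-68519549), and start site 2 lies far inside it (window chr13:68575816-68576115). A transcript from start site 2 is much shorter, so the shares of decile 9 may not apply to Glul.

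**Figure D2:**
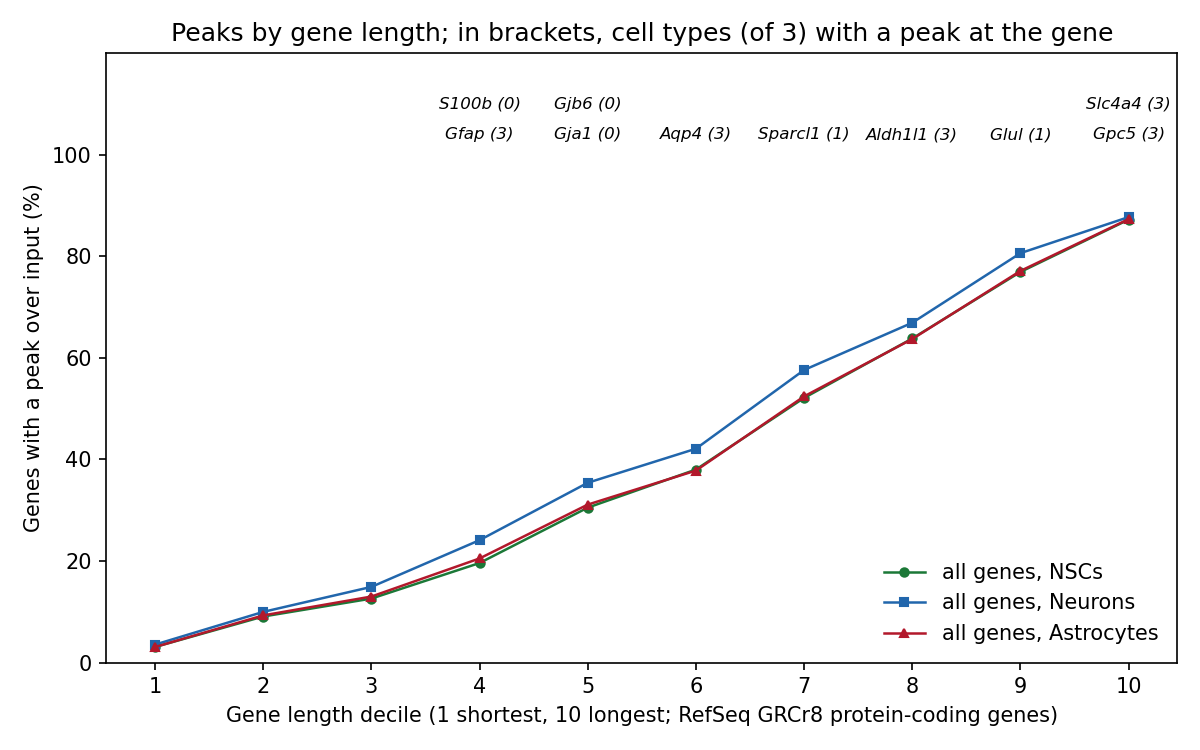
Percent of protein-coding genes with a peak over input in each length decile (1 shortest, 10 longest), by cell type, with the 10 genes written above their decile and the number of cell types with a peak in brackets. The share rises to 87.2% to 87.7% in decile 10, which holds Gpc5 and Slc4a4, and both genes have a peak in all 3 cell types.

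Among the channels and transporters, Aqp4, the water channel of astrocyte endfeet, was the only member with a promoter peak over input. That peak lay in the promoter and upstream columns in every cell type. In NSCs it spanned chr18:6783478-6784136 with a fold of 16.38 and a score of 241.32. In Neurons it spanned chr18:6783473-6783959 (fold 32.60, score 324.09), and in Astrocytes chr18:6783523-6784075 (fold 25.76, score 261.09). Coordinates are those of the authors' lists, and the sources used here do not give their genome build. A promoter or upstream peak was listed for 6.40% of all genes in NSCs, 7.94% in Neurons and 6.40% in Astrocytes, and for 2.99% (693 genes) in all 3. None of the 6 comparison lists named the Aqp4 promoter.

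The RefSeq windows around the start sites of Aqp4 are shown because it is the only member whose promoter was enriched over input. They cover 250 bases before to 50 after each start on the minus strand of GRCr8, at chr18:6798793-6799092 for start site 1 and chr18:6797877-6798176 for start site 2. Where the peak lies in relation to them is unknown, since the builds could not be matched. Capitals mark GATC, a palindrome that reads the same on both strands and that the Dam methyltransferase of bacteria methylates at its adenine.
Aqp4 start site 1: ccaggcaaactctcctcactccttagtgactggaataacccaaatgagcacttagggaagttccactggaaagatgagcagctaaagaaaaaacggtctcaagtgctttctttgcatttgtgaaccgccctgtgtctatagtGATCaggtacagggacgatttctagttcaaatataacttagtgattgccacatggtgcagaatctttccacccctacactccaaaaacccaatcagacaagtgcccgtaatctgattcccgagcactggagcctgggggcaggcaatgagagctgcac
Aqp4 start site 2: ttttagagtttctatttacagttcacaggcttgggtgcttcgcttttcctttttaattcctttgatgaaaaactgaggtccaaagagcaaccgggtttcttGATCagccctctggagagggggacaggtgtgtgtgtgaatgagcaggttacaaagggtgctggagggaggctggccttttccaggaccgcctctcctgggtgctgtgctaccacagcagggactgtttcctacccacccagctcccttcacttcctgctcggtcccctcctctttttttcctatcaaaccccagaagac
Each window held 1 GATC, and 46.9% of the 33465 RefSeq promoters of 300 bases held at least 1. Adenine and thymine made up 52.7% of the bases at start site 1 and 48.7% at start site 2, beside a median of 48.3% over all promoters. The windows held 5 and 4 CG pairs, beside a median of 7. No TATAAA was found in either, on either strand (14.2% of all promoters held it), and GGGCGG was found once at start site 1 (33.1% of all promoters).

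The body of Aqp4 differed between the lists. Its exon peak, which also falls in the downstream column of LOC108348750, was listed in Neurons (chr18:6767661-6768169, fold 9.66) and in Astrocytes (chr18:6767618-6768011, fold 13.94) but not in NSCs. An intron peak was listed in Neurons alone (chr18:6772637-6773071, fold 10.00). At that intron, the authors' deposited table of Neurons over Astrocytes listed chr18:6772755-6773069 with a fold of 8.25, the only comparison region of the gene. By peaks per 100 kb, 1.51% of the genes of its decile were denser than Aqp4 in Neurons, 17.2% in NSCs and 5.05% in Astrocytes. These ranks rest on 3, 1 and 2 peaks, in a decile whose median was 0 in each cell type. Each count includes the promoter peak, which lies outside the gene body. The other Neuron peaks had scores of 62.87 and 54.40, near the lowest listed score of 50.0.

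Slc4a4 encodes the electrogenic sodium bicarbonate cotransporter, and all of its peaks were intronic. It held 12 peaks in NSCs, 18 in Neurons and 12 in Astrocytes, or 2.66, 3.98 and 2.66 per 100 kb. Between 45.1% (Neurons) and 56.5% (NSCs) of the longest genes were denser, so Slc4a4 sat near the middle of its decile. Merged over the cell types its peaks made 21 stretches. Of these, 8 were enriched in all 3 cell types, 8 in Neurons alone, 2 in NSCs alone, 2 in Astrocytes alone and 1 in Neurons and Astrocytes. By peaks, 44.4% of those in Neurons (exact 95% interval 21.5 to 69.2%), 16.7% in NSCs and 16.7% in Astrocytes (both 2.09 to 48.4%) were in no other cell type. The shares over all peaks, 36.1%, 32.1% and 29.2%, lie within these intervals.

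The widest of the leading Slc4a4 peaks was present in every cell type, at chr14:20484226-20485553 in NSCs (fold 32.60), chr14:20484292-20485530 in Neurons (41.05) and chr14:20484120-20485394 in Astrocytes (30.54). The largest fold in Neurons was at chr14:20596154-20596655 (53.12), a site with a fold of 24.60 in NSCs and 35.63 in Astrocytes (chr14:20596044-20596427). The largest folds in NSCs and in Astrocytes were at another shared site, chr14:20752248-20752807 in NSCs (36.36) and chr14:20752370-20752775 in Astrocytes (36.90), where Neurons had 27.77 (chr14:20752357-20752766). All of these leading sites were therefore found in all 3 libraries, and no comparison list named any of them. A further shared site at chr14:20694361-20694767 in NSCs had folds of 28.83 in NSCs, 26.56 in Neurons and 10.18 in Astrocytes. There the authors' deposited table of NSCs over Astrocytes listed chr14:20694365-20694767 with a fold of 4.80.

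Sites higher in Neurons than in both other cell types numbered 3 in Slc4a4, and none was higher in NSCs or in Astrocytes than in both others. This count was not made over all genes, and the whole lists differed in length. Neurons had 32213 regions over NSCs and 39716 over Astrocytes. NSCs had 27634 over Neurons and 32105 over Astrocytes, and Astrocytes had 21671 over NSCs and 16599 over Neurons. At chr14:20778056-20778395 the authors' deposited table of Neurons over NSCs gave a fold of 16.04, and the authors' deposited table of Neurons over Astrocytes gave 15.60 at chr14:20778066-20778395. At chr14:20567468-20567777 the folds in the authors' deposited tables were 11.10 over NSCs and 11.70 over Astrocytes. The remaining site had folds of 8.93 over NSCs (chr14:20656214-20656848) and 10.02 over Astrocytes (chr14:20656390-20656848) in the authors' deposited tables. All 3 coincided with Neuron peaks that overlapped no peak of NSCs or Astrocytes. Over all regions, 68.2% of Neurons over NSCs and 65.4% of Neurons over Astrocytes had a peak in Neurons and none in the other cell type of the pair. One more Neuron region, chr14:20771188-20771581, had a fold of 9.10 in the authors' deposited table of Neurons over Astrocytes and was not listed over NSCs.

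The remaining Slc4a4 regions were found for NSCs and for Astrocytes. Over Neurons, NSCs had chr14:20734396-20735056 (4.96) in the authors' deposited table. Over Astrocytes, NSCs had chr14:20613930-20614217 (8.92), chr14:20733474-20734223 (4.78) and chr14:20760153-20760406 (8.31) beside the shared site above, per the authors' deposited table. Astrocytes had 1 region over NSCs, chr14:20791934-20792287 (9.30), and 1 over Neurons, chr14:20717203-20717543 (10.40), per the authors' deposited tables.

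**Figure D3:**
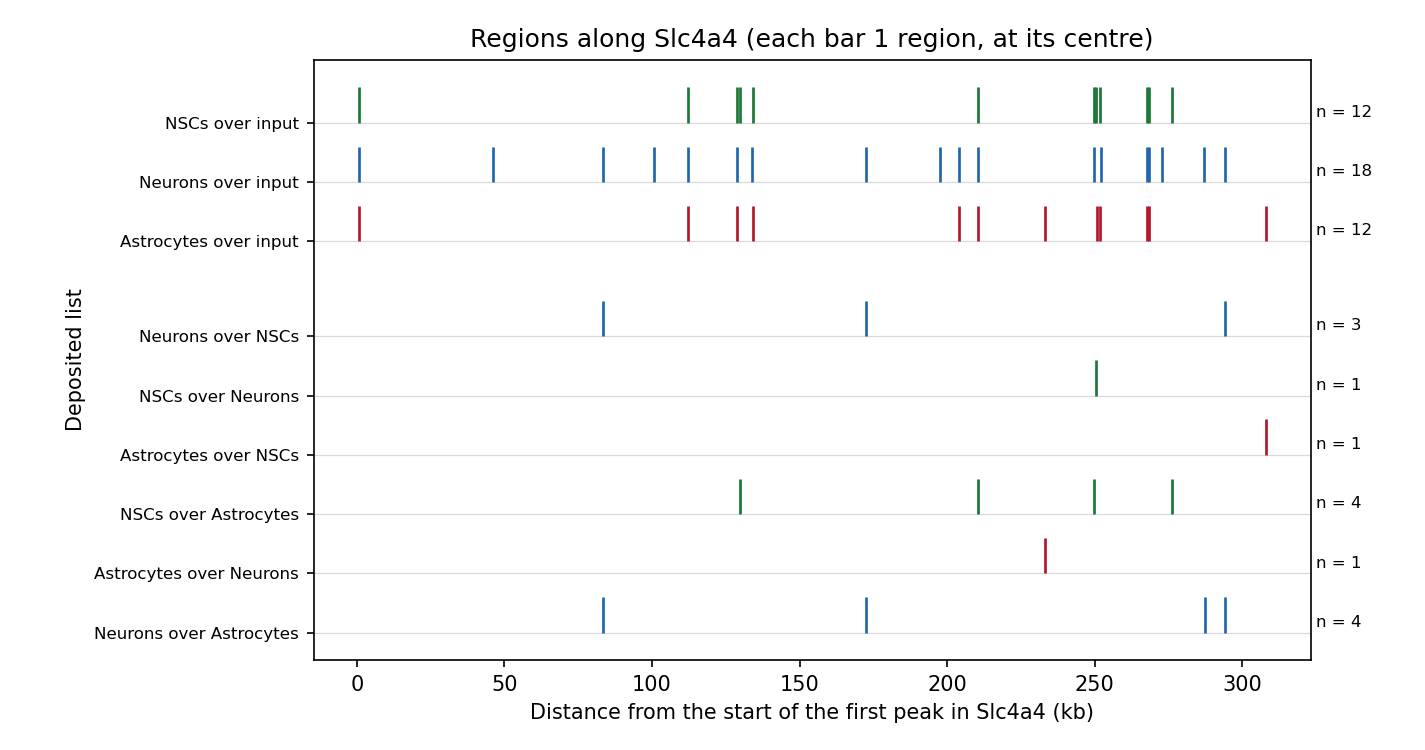
Regions along Slc4a4 in the 3 lists over input and the 6 comparison lists, each bar 1 region placed by its distance (kb) from the start of the first peak. Neurons show 18 peaks against 12 in NSCs and 12 in Astrocytes, and 3 Neuron sites recur in the lists of Neurons over NSCs and Neurons over Astrocytes.

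Gja1 and Gjb6 encode connexin 43 and connexin 30, the gap junction proteins of astrocytes. Neither had a region in any of the 9 lists. Gjb2, the gene next to Gjb6 in the reference, had no peak over input and 1 region in the authors' deposited table of Astrocytes over NSCs. Msl3l2, next to Gja1, had 1 peak in each cell type and 1 region each in the authors' deposited tables of Neurons over NSCs and Astrocytes over NSCs. Hsf2, on the other side of Gja1, had no peak over input.

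Gpc5, a heparan sulfate proteoglycan of the cell surface, was by far the richest member in regions. It held 58 peaks in NSCs, 65 in Neurons and 55 in Astrocytes, and ranked 15th, 13th and 14th among all genes by number. Per 100 kb the counts were 4.04, 4.52 and 3.83, and between 36.5% and 37.9% of the genes of its decile were denser in each list. It was therefore near the top by number and not by density. All of these peaks were intronic, and they covered 1.98%, 2.04% and 1.59% of the 1474 kb they span in NSCs, Neurons and Astrocytes. The longest stretch without a peak in any cell type was 68.52 kb, and the 100 kb between 600 and 700 kb from the first peak held 5 peaks in NSCs, 11 in Neurons and 6 in Astrocytes.

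The peak of largest fold at any member was in Gpc5 in NSCs, at chr15:101241226-101242033. It had a fold of 104.06 and a score of 1403.00, and 0.175% of the NSC list had a fold at least as large. The site was also a peak in Neurons (chr15:101241465-101241914, fold 45.88) and in Astrocytes (chr15:101241374-101241871, fold 35.63). It recurred in all 3 pairs of cell types, with NSCs above Neurons and Neurons above Astrocytes. Over Neurons, the authors' deposited table listed chr15:101241224-101242033 for NSCs with a fold of 8.52. Over Astrocytes, the authors' deposited table gave NSCs a fold of 15.60 at chr15:101241234-101242033, with a score of 370.96 that 0.0779% of that list reached. The authors' deposited table of Neurons over Astrocytes gave a fold of 4.05 at chr15:101241465-101241914.

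Another strong site in Gpc5 had the reverse order for NSCs. It was a peak in NSCs (chr15:101450882-101451888, fold 38.86), Neurons (chr15:101450969-101451962, 53.02) and Astrocytes (chr15:101450824-101451995, 65.55). At the coordinates of their own peaks, Neurons had a fold of 4.82 over NSCs and Astrocytes a fold of 5.05 over NSCs, per the authors' deposited tables. These folds were low and the scores high for their lists: 94.9% and 94.5% of the regions had a fold at least as large, and 0.348% and 0.512% had a score at least as large. No region separating Neurons from Astrocytes was listed at the site.

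One further site was strong in every library and named in no comparison. It spanned chr15:100347576-100348897 in NSCs (fold 71.46), chr15:100347635-100348862 in Neurons (77.27) and chr15:100347585-100348779 in Astrocytes (82.71), the largest Gpc5 fold in Neurons and in Astrocytes. The site at chr15:101670955-101671395 in NSCs (55.16), with 35.15 in Neurons and 58.53 in Astrocytes (chr15:101671041-101671437), was likewise in no comparison list. These leading Gpc5 peaks were therefore shared by the libraries, whether or not a comparison listed them. Not every strong site was: chr15:100593317-100593953 had a fold of 33.85 in NSCs and 26.72 in Astrocytes, and no Neuron peak. Over Neurons, the authors' deposited tables gave folds of 10.76 for NSCs (chr15:100593317-100593955) and 10.23 for Astrocytes (chr15:100593434-100593946).

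Gpc5 peaks found in a single library had lower median folds, as did such peaks over the whole lists. Sharing needs a listed peak in the other libraries too, so this split is not independent of peak strength. Merged over the cell types the peaks made 104 stretches, of which 27 were enriched in all 3, 17 in NSCs alone, 23 in Neurons alone and 17 in Astrocytes alone. By peaks, 29.3% of the Gpc5 peaks in NSCs, 35.4% in Neurons and 30.9% in Astrocytes were in no other cell type, near the 32.1%, 36.1% and 29.2% of all peaks. The median fold of peaks found in all 3 cell types was 17.55 in NSCs, 19.32 in Neurons and 14 in Astrocytes. For peaks found in no other cell type the medians were 11.28, 12.07 and 11.45. Over all peaks of the lists the same medians were 16.74 and 10.03 in NSCs, 19.3 and 10.56 in Neurons, and 17.29 and 10.18 in Astrocytes, so Gpc5 followed the whole lists in direction.

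**Figure D4:**
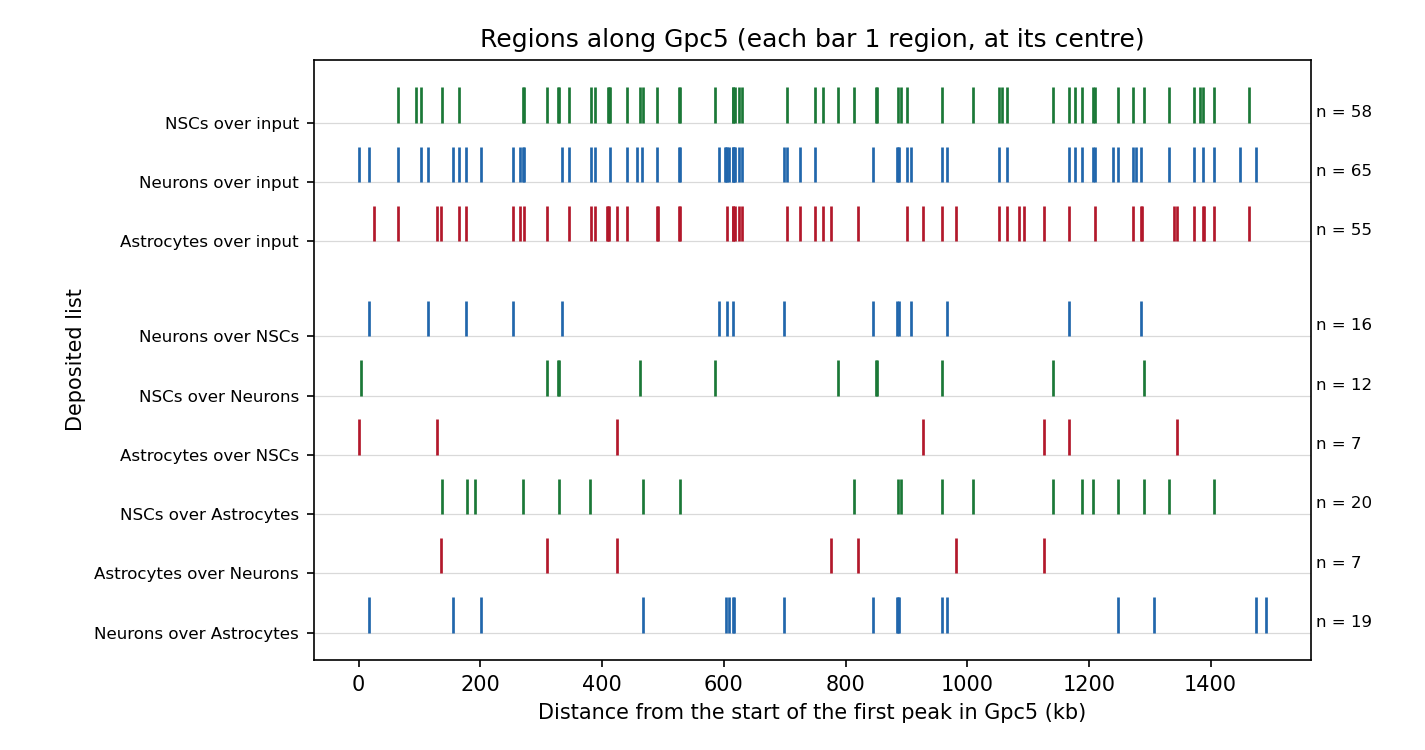
Regions along Gpc5 in the 3 lists over input and the 6 comparison lists, each bar 1 region placed by its distance (kb) from the start of the first peak. Peaks are spread over the whole gene, and the comparison lists hold 7 regions each for Astrocytes over NSCs and over Neurons, against 12 to 20 in the other 4 lists. Over all genes these lists were also the shortest, with 21671 and 16599 regions against 27634 to 39716 in the other 4.

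The only promoter region of any member in a comparison list was at Gpc5. The authors' deposited table of Astrocytes over NSCs listed chr15:100282627-100285291, a region of 2665 bp over a CpG island that also names LOC102548462, with a fold of 4.88 and a score of 114.32. Its fold was low for that list, since 95.1% of regions reached it, and its score was high, since 4.44% did. A promoter or upstream region was listed there for 1.79% of all genes. The other lists named no promoter of a member, beside 2.57% of all genes in Neurons over NSCs, 2.01% in NSCs over Neurons, 2.04% in NSCs over Astrocytes, 1.29% in Astrocytes over Neurons and 3.01% in Neurons over Astrocytes, per the authors' deposited tables. The region overlapped no peak over input in Astrocytes or in NSCs, and it overlapped a Neuron peak at chr15:100283675-100284857 with a fold of 5.99.

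The RefSeq promoter of Gpc5 (plus strand, GRCr8, chr15:98646508-98646807, the same window of 250 bases before to 50 after the start) is shown for that reason, with GATC to be marked in capitals.
Gpc5: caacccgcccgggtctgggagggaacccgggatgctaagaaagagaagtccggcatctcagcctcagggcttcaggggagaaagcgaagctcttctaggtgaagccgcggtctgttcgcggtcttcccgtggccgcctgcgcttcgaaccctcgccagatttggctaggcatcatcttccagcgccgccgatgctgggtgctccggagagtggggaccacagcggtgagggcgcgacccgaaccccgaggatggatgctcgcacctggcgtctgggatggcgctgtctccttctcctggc
It holds no GATC, 26 CG pairs (the highest quartile of all promoters starts at 19) and 1 GGGCGG on either strand. Adenine and thymine make up 35% of its bases, below the lowest quartile of 39.7%. The Gpc5 window is thus richer in CG pairs than both Aqp4 windows printed above.

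Regions higher in Neurons or NSCs outnumbered those higher in Astrocytes in Gpc5, as they did over the whole lists. Against NSCs, 25.9% of the Gpc5 regions were higher in Astrocytes (exact 95% interval 11.1 to 46.3%), beside 40.3% of all regions. Against Neurons it was 26.9% (11.6 to 47.8%), beside 29.5%. Each interval holds the share over all regions. Over NSCs, Neurons had 16 Gpc5 regions in the authors' deposited table, the largest folds being 19.74 (chr15:100982434-100982648), 13.10 (chr15:101190517-101190956) and 12.34 (chr15:101170763-101170992). Over Astrocytes, Neurons had 19 in the authors' deposited table, led by 22.10 (chr15:101169695-101170030), 17.47 (chr15:100982434-100982643) and 14.30 (chr15:100887194-100887531). The site at chr15:100982434 was thus among the leading Neuron regions over both other cell types, and 7 Gpc5 sites in all were listed for Neurons over both. Counts of sites listed over both other cell types, here and below, were not made over all genes.

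NSC regions in Gpc5 numbered 12 over Neurons in the authors' deposited table, led by 12.81 (chr15:100745607-100745849), 12.34 (chr15:100610499-100610701) and 11.10 (chr15:101071159-101071488 and chr15:101574173-101574599). They numbered 20 over Astrocytes in the authors' deposited table, led by 17.27 (chr15:101530996-101531377), the 15.60 given above and 12.37 (chr15:100460948-100461178). The last of these overlapped no peak over input in any cell type. For NSCs, 4 Gpc5 sites were listed over both other cell types.

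Astrocyte regions in Gpc5 numbered 7 over NSCs and 7 over Neurons, and 2 sites were listed over both. One was chr15:101410132-101410481, with folds of 15.94 over NSCs and 15.60 over Neurons in the authors' deposited tables. The other was chr15:100708740-100709089, with folds of 10.63 and 10.40 in the authors' deposited tables. Beside these, the promoter region and the site at chr15:101450824, the authors' deposited table over NSCs listed chr15:100412746-100413184 (17.27), chr15:101210640-101211079 (11.96) and chr15:101628521-101628750 (13.29). Over Neurons, the authors' deposited table listed chr15:100419052-100419408 (9.10), chr15:100593434-100593946 (10.23), chr15:101059304-101059457 (13.00), chr15:101103506-101103947 (13.00) and chr15:101265667-101266061 (10.40). All 7 of the regions over Neurons coincided with Astrocyte peaks where Neurons had none, as did 71.7% of all regions of that list.

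Sparcl1, also called hevin, is a matrix protein that astrocytes secrete and that promotes synapse formation. It had a single region, in an intron, and that region was found only in NSCs. The NSC peak spanned chr14:7005365-7006044 (680 bp) with a fold of 28.83 and a score of 321.90. No peak over input was listed at Sparcl1 in Neurons or Astrocytes.

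The Sparcl1 site stood near the top of both lists in which NSCs were compared with another cell type. Over Neurons, the authors' deposited table gave it a fold of 21.83 and a score of 276.13 at chr14:7005365-7006066, and 71 of 27634 regions had a larger fold and 42 a larger score. Over Astrocytes, the authors' deposited table gave a fold of 29.23 and a score of 324.15 at chr14:7005365-7006036, and 11 of 32105 regions had a larger fold and 44 a larger score. Both lists rest on the same NSC library. Of the 14858 NSC peaks with a score at least as large as that of Sparcl1, 27 overlapped no peak of Neurons or Astrocytes (0.182%). Over all NSC peaks the share was 32.1%. These shares describe the NSC list, in which few of the peaks above this cut lacked a counterpart in the other libraries. They are no test of the Sparcl1 site, because the site was picked out after its values were seen and its own score set the cut.

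Of the enzymes, Aldh1l1 (10-formyltetrahydrofolate dehydrogenase, of folate metabolism) had peaks in all 3 cell types and Glul (glutamine synthetase, which turns glutamate into glutamine) in Neurons alone. Aldh1l1 held 4 peaks in NSCs, 4 in Neurons and 3 in Astrocytes. The site of largest score in each of the 3 lists lay in its downstream column, which is also the promoter of Slc41a3. It had folds of 25.76 in NSCs (chr4:123514699-123515415), 39.54 in Neurons (chr4:123514773-123515482) and 33.09 in Astrocytes (chr4:123514680-123515525). The authors' deposited table of Neurons over NSCs listed it with a fold of 3.91. Which of the neighbouring genes the site belongs to cannot be told from its position.

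Intron sites of Aldh1l1 were shared too. The first had folds of 33.18 in NSCs (chr4:123532307-123533068), 24.80 in Neurons (chr4:123532307-123533016) and 28.10 in Astrocytes (chr4:123532434-123533023). The second had 8.73 in NSCs (chr4:123540005-123540655), 17.78 in Neurons (chr4:123539896-123540642) and 24.80 in Astrocytes (chr4:123539797-123540614). The second was listed with a fold of 4.39 in the authors' deposited table of Astrocytes over NSCs, a fold that 97.1% of its list reached. Aldh1l1 was the only member besides Gpc5 and Slc4a4 with a region higher in Astrocytes. A peak over an exon and intron was listed in Neurons alone (chr4:123547399-123547814, fold 11.24), with a fold of 7.80 at chr4:123547399-123547718 in the authors' deposited table of Neurons over Astrocytes. An intron peak was listed in NSCs alone (chr4:123559760-123560255, fold 13.90) and in no comparison.

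The only Glul peak lay in an intron in Neurons, at chr13:71335581-71335977, with a fold of 14.49 and a score of 77.17. At the same coordinates the authors' deposited table of Neurons over NSCs gave a fold of 14.81 and a score of 70.43. The site was not listed for Neurons over Astrocytes, although Astrocytes had no peak there.

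Gfap encodes the intermediate filament protein of astrocytes, and its peaks were in the same place in every cell type. NSCs had 1 peak, chr10:90994315-90995155 (fold 8.36). Neurons had a pair, chr10:90994251-90994697 (9.59) and chr10:90994777-90995194 (8.44). Astrocytes also had a pair, chr10:90994273-90994777 (13.30) and chr10:90994783-90994995 (8.43). All but one of these folds were low for their lists, reached by 77.7% to 87.6% of the regions, while the 13.30 in Astrocytes was reached by 41.9%. Together they made 1 stretch of 944 bp over an exon and introns on a CpG island shore, and no comparison list named it. At Gfap, therefore, no region was listed as differing between the libraries.

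S100b, a calcium-binding protein of astrocytes, had no peak over input in any cell type. Its single region was in an intron, chr20:13133765-13134139, with a fold of 8.64 and a score of 65.59 in the authors' deposited table of NSCs over Neurons. That region overlapped no peak over input. Its neighbours Dip2a and Prmt2 had 5 and 1 peaks in NSCs, 5 and 1 in Neurons, and 6 and 3 in Astrocytes.

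The counts of members in the comparison lists were between 2 and 4. Neurons over NSCs named 4 members (23.2% of all genes), NSCs over Neurons 4 (20.5%), and Astrocytes over NSCs 3 (18.6%), in the authors' deposited tables. NSCs over Astrocytes named 3 (22.3%), Astrocytes over Neurons 2 (15.3%) and Neurons over Astrocytes 4 (25.6%), in the authors' deposited tables. The shares over all genes take no account of gene length. Gpc5 and Slc4a4 were named in every one of these lists. In their length decile 10, the share of genes with a region ran from 54.8% (Astrocytes over Neurons) to 75.3% (Neurons over Astrocytes). The lists share libraries, so these counts are not independent of each other.

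**Figure D5:**
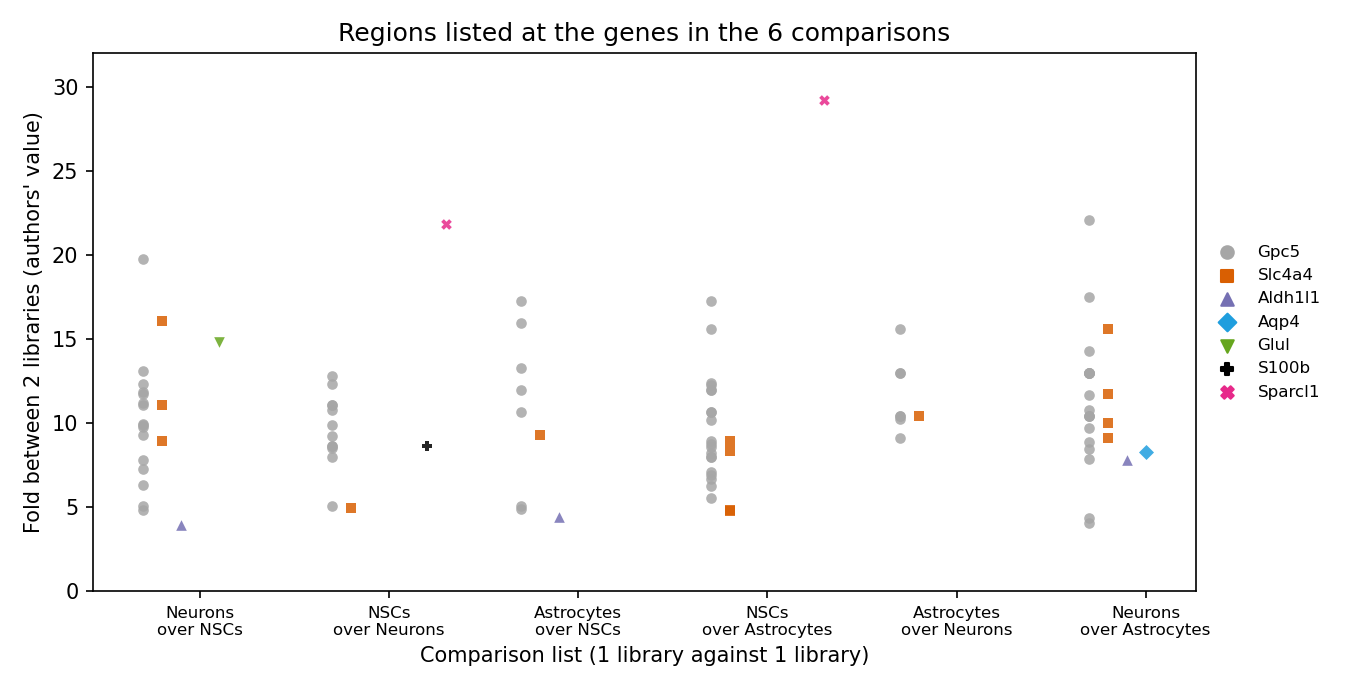
Fold between 2 enriched libraries (authors' value) of every region at the members in each of the 6 comparison lists. The Sparcl1 region has the largest member fold over Neurons (21.83) and over Astrocytes (29.23) in NSCs, and most other points belong to Gpc5.

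By regions, 9 at the members were higher in Astrocytes and 25 in NSCs, a share of 26.5% (exact 95% interval 12.9 to 44.4%) beside 40.3% over all regions of that pair. Against Neurons, 8 were higher in Astrocytes and 25 in Neurons, or 24.2% (11.1 to 42.3%) beside 29.5%. Between Neurons and NSCs, 21 were higher in Neurons and 15 in NSCs, or 58.3% (40.8 to 74.5%) beside 53.8%. Each interval holds the share over all regions, and most of the regions lie in Gpc5. The whole lists also held fewer regions higher in Astrocytes than in either other cell type.

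The share of member peaks without a counterpart in another library was 27.3% for NSCs, 36.6% for Neurons and 25.7% for Astrocytes, beside 32.1%, 36.1% and 29.2% of all peaks. In NSCs 40 of 77 member peaks overlapped a peak of both other cell types (51.9%, 40.3 to 63.5%), beside 43.6% of all NSC peaks and 46.1% of those in introns. In Neurons it was 42 of 93 (45.2%, 34.8 to 55.8%), beside 38.6% and 40.2%, and in Astrocytes 42 of 74 (56.8%, 44.7 to 68.2%), beside 45.8% and 47.3%. Each of these intervals holds the share over all peaks. Without Gpc5 the shares were 68.4% (13 of 19, 43.4 to 87.4%), 53.6% (15 of 28, 33.9 to 72.5%) and 78.9% (15 of 19, 54.4 to 93.9%). The last interval lies above the share over all peaks, but 9 of its 15 peaks lie in Slc4a4. Another 2 are adjacent Gfap peaks that overlap the same NSC peak, so no excess of sharing can be read from it. Neighbouring peaks of 1 library are not independent, and the intervals cover counting error only. The median fold of the member peaks was 13.06 in NSCs, 13.28 in Neurons and 12.72 in Astrocytes, beside 12.19, 12.07 and 12.27 over all peaks.

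A list of 60 other genes of astrocyte function, such as glutamate transporters, potassium channels and secreted matrix proteins, was counted in the same way. Over input, 35 of the 60 (58.3%) had a peak in NSCs, 44 (73.3%) in Neurons and 34 (56.7%) in Astrocytes. The shares over all genes were 39.3%, 42.3% and 39.5%, without regard to gene length. In the authors' deposited tables, 25 had a region in Neurons over NSCs, 17 in NSCs over Neurons and 15 in Astrocytes over NSCs. The authors' deposited tables named 21 in NSCs over Astrocytes, 13 in Astrocytes over Neurons and 25 in Neurons over Astrocytes. Fewer of these genes had a region higher in Astrocytes than had one higher in the other cell type, and the shares over all genes given above run the same way. Their median length was 24.74 kb, beside 23.85 kb for the members and 15.5 kb for all genes.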

How the data were processed

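Enriched DNA was sequenced in 1 library each of NSCs, Neurons and Astrocytes. Reads were aligned with BWA, per the submitters' processing notes, which give no version. The genome build, the gene annotation and the peak caller's version are unknown (not given in the sources used here). Per the file headers, the authors' mapping summary holds read counts and the percent of reads that mapped. It also has 1 line that belongs to no sample, an astrocyte input, which was not used. The title of the Astrocyte list over input gives that library as its comparison. The authors' region lists carry a score (10 times the −log10 p, lowest value 50.0) and a fold, a ratio of 1 library to its input or to another library, per the file headers.

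Regions were read as deposited, with 6 blank lines skipped, and tied to a gene by symbol. Start and end both count towards a width. An overlap of 1 bp made peaks of different lists shared. Gene lengths, gene order and promoters came from RefSeq (GRCr8), and all 10 members and all 60 related genes were matched by symbol. The 95% intervals on shares (exact Clopper-Pearson) reflect counting error alone. The gene and term enrichment tables were not used. All 10 members are named, with every region where a list had up to 8 for a gene. Otherwise the 3 of largest fold are given, with ties, plus sites picked after their values were seen. The members and lists were chosen with earlier results of these data known. Alternatives were a stricter score, a stricter fold, narrower annotation columns, a larger overlap and another gene length. Python 3.11.15, numpy 2.4.6 and scipy 1.17.1 were used, and the overlap code was tested on simulated data.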

Additional observations from a re-analysis of the deposited data

How the results depend on the processing

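Stricter cuts were the pooled medians of the lists, a score of 87.44 and a fold of 12.07 over input and a score of 62.44 and a fold of 9.53 in the comparison lists. Of 72 alternative counts of members and regions, 33 stayed within 1.5 times the reported count and 39 did not, while the 6 alternative shares of peaks found in both other cell types stayed within the 95% intervals of the reported values. The alternative gene length applied only where the peaks span more than the reference gene, so it changed the density of Gpc5 alone (to 3.93, 4.41 and 3.73 peaks per 100 kb in NSCs, Neurons and Astrocytes) and says nothing of the other members.

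With the stricter score, peaks at the members numbered 42 in NSCs, 50 in Neurons and 40 in Astrocytes, and with the stricter fold 47 in NSCs and 45 in Astrocytes. The stricter score left Neurons without Gfap and Glul (4 members) and Astrocytes without Gfap (4 members), and the stricter fold left NSCs (5 members) and Neurons (5 members) without Gfap. With promoter and upstream columns only, 1 member with 1 peak was left in each cell type (Aqp4). In the comparison lists those columns left 1 member with 1 region in Astrocytes over NSCs (Gpc5) and 0 members with 0 regions in each of the other 5.

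With the stricter score, regions numbered 13 in Neurons over NSCs, 8 in NSCs over Neurons, 5 in Astrocytes over NSCs, 13 in NSCs over Astrocytes, 5 in Astrocytes over Neurons and 14 in Neurons over Astrocytes. With the stricter fold they numbered 13 in Neurons over NSCs, 7 in NSCs over Neurons, 5 in Astrocytes over NSCs and 10 in NSCs over Astrocytes. The same cut left 7 regions in Astrocytes over Neurons and 17 in Neurons over Astrocytes. Members with a region fell to 2 in NSCs over Neurons with the stricter fold, and to 1 in Astrocytes over NSCs and 2 in Neurons over Astrocytes with either. They fell to 1 in Astrocytes over Neurons with the stricter score. Further falls were to 3 in Neurons over NSCs with either cut and to 3 in NSCs over Neurons with the stricter score. In NSCs over Astrocytes the stricter fold left 2 members. Fewer regions reach a stricter cut by its construction.

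No paired analysis was possible because each cell type has 1 library. Leaving out a library was not run for the same reason. The depth of 15760246 to 16095308 reads per enriched library limits what a list can hold, and a gene without a region is not shown to lack enrichment.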
